A study of Homo sapiens with 24 samples.

Results

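The comparison described here sets 3 libraries of MCF-10A cells carrying MYC-ER against 3 libraries of parental MCF-10A cells, all after 8 h with 4-hydroxy tamoxifen (4-OHT), and takes in every gene of the count table. These are 6 of the series' 24 poly(A)-selected RNA-seq libraries, chosen by line and time from the labels and not by any measured value. MCF-10A is an immortalised, non-tumorigenic human mammary epithelial line. MYC-ER is a fusion of the MYC transcription factor with a hormone-binding part of the oestrogen receptor, given in the labels as the genotype MYC.ER of the same line. Both lines grew in 3D culture on growth-factor-reduced Matrigel, with 10000 cells seeded per well. Treatment is listed as starting on day 3 and collection as on day 5 for every group, whatever its hours of 4-OHT. The 8 h of 1 µM 4-OHT is taken here as the last stretch of the culture, which these days alone do not settle. The other groups got 0, 24 or 48 h of the same drug. The promoter that drives the fusion, the species of its parts, and whether the MYC-ER line is 1 clone or a pool are not given in the sources used here. The labels call the libraries replicates but do not say that they came from separate cultures, so p-values measure only the spread between these libraries, which may be technical.

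MYC pairs with MAX and binds DNA at E-box sequences, and it is known in many tissues for driving genes of ribosome production, nucleotide and amino acid metabolism and cell cycle entry. A MYC-ER protein stays bound to chaperones and inactive until 4-OHT occupies its hormone-binding part. Setting the lines side by side after equal exposure leaves out effects of the drug that both share, but it keeps every difference that the lines had without it, and so the difference at 0 h is given beside the one at 8 h.

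MYC itself was higher in MYC-ER cells. Levels are in CPM, the count scaled to a common library size, where that size is the total count times the library's TMM factor. At 8 h these factors were 0.916 to 0.939 in MYC-ER and 0.968 to 0.991 in parental libraries. The MYC gene (ENSG00000136997.19, chr8:127735434-127741434, forward strand, in GENCODE v29 on GRCh38, as for all gene positions here) had 795, 793 and 797 CPM in MYC-ER and 471, 475 and 443 CPM in parental cells. The groups did not overlap, and the log2 difference of MYC-ER minus parental cells was 0.78 (SE 0.0674, adjusted p 3.17e-09). At 0 h the sign was the opposite, -0.46, with 394, 378 and 388 CPM in MYC-ER and 462, 535 and 599 CPM in parental cells. Whether reads from the fusion fall in this row is not given. ESR1 (ENSG00000091831.23), the gene of the oestrogen receptor, was near the limit of detection, with 0, 5 and 0 counts in MYC-ER and 54, 25 and 30 in parental cells, so neither row serves as a check of the fusion.

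The 6 libraries held 149109167 to 167360364 counts, of which mitochondrial genes took 5.61 to 6.58% in MYC-ER and 6.50 to 7.73% in parental cells. At 0 h the mitochondrial share was 9.24 to 9.71% in MYC-ER and 3.86, 7.28 and 7.03% in parental libraries. Between 24075 and 24579 genes had a count in the MYC-ER libraries, against 25807 to 25999 in the parental ones; the part of this in the results was not tested. Spearman correlations across genes were 0.989 to 0.991 within the groups and 0.970 to 0.971 between them. Both lines carried the keratins of the basal mammary epithelium: KRT5 had 9955, 9428 and 10532 CPM in MYC-ER and 11175, 11489 and 11006 CPM in parental cells, and KRT6A, which has near-identical paralogues, had 8502, 8230.4 and 8971 CPM in MYC-ER and 9472, 9617 and 9704 CPM in parental cells. Of the 13 basal markers, EPCAM was higher in MYC-ER cells (log2 difference 1.82) and KRT14, KRT17, TP63 and SFN were lower (-2.24, -0.90, -0.48 and -0.23). Their summed level was 27143 to 29977 CPM in MYC-ER and 37703 to 38586 CPM in parental libraries. The 11 luminal markers summed to 616 to 659 CPM in MYC-ER and 363 to 388 CPM in parental cells, with KRT8 and KRT18 higher and ESR1, GATA3, KRT19 and AGR2 lower. Markers of other cell types were low: fibroblast markers summed to 102 to 111 CPM and 93.4 to 104 CPM, endothelial markers to 4.29 to 4.95 CPM and 6.17 to 7.64 CPM, and leukocyte markers to 39.3 to 42.7 CPM and 35.8 to 40.1 CPM, in MYC-ER and parental libraries respectively. COL3A1, THY1, CDH5, TIE1, EMCN and CD3E were listed at 0 counts in all 6 libraries, and PTPRC, the common leukocyte antigen, had 2 counts over the 6. Of the markers of these 3 cell types, DCN, TEK and CD68 were called higher and FAP, POSTN, KDR, ROBO4, CD14, ITGAM and CSF1R lower.

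The lines differed widely at 8 h. Of 22158 genes tested, 10766 passed an adjusted p of 0.05 (48.6%), 5110 of them higher in MYC-ER cells (23.1%) and 5656 lower (25.5%). Most of these differences were small: 3328 genes (15.0%) also differed by at least 2-fold, and among them the lower genes outnumbered the higher ones, with 2347 lower (10.6%) and 981 higher (4.43%). An at least 8-fold difference was called for 538 lower and 145 higher genes. The 3 and 3 replicate values of a gene did not overlap for 13467 genes (60.8%). The median log2 difference over all genes was -0.05, so a list of genes is read below against this median and these percentages. The lists are made of protein-coding genes, and of 15000 such genes 30.5% were called higher and 28.0% lower, with a median of 0.01. A list near these shares is not set apart from other protein-coding genes. Across 9645 genes averaging 10 CPM or more, the log2 difference had a rank correlation of -0.014 with GC content and 0.20 with gene length (a description over genes, which are not independent). For the difference at 0 h these correlations were -0.27 and 0.39, so the interaction is less free of both traits than the difference at 8 h. The part of gene length in the results was not tested.

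**Figure D1:**
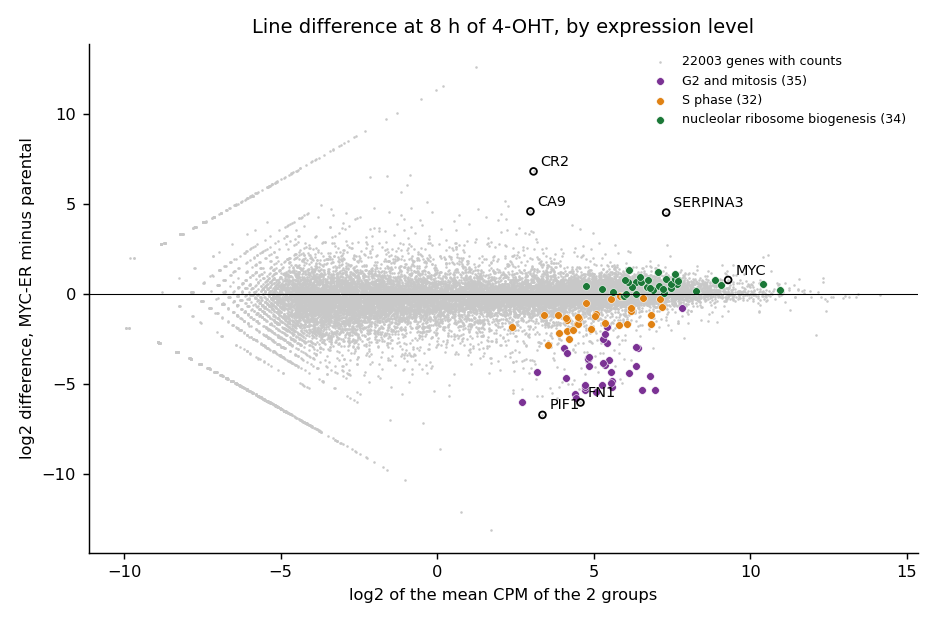
Log2 difference between MYC-ER and parental cells at 8 h (vertical axis) against the log2 of the mean CPM of both groups (horizontal axis); each grey point is 1 of 22003 genes, and 155 tested genes with no counts in the 6 libraries are not drawn. The 35 genes of G2 and mitosis lie below 0, the nucleolar genes lie around or above it, and the diagonal streaks at the far left are genes with no counts in 1 group.

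The gene with the largest positive difference among those with at least 10 CPM was CR2, the complement receptor of B cells (ENSG00000117322.17, chr1:207454230-207489895, forward strand). It had 17.6, 16.6 and 16.1 CPM in MYC-ER and 0.124, 0.139 and 0.185 CPM in parental cells, a 111-fold ratio of means and a log2 difference of 6.798 (SE 0.392, adjusted p 4.47e-12). CR2 was as low in MYC-ER cells without 4-OHT, with 0.0928, 0.204 and 0.128 CPM at 0 h. CA9, a carbonic anhydrase of the cell surface known as a hypoxia marker (ENSG00000107159.13, chr9:35673856-35681159, forward strand), had 15.01, 13.1 and 17.4 CPM in MYC-ER and 0.3904, 0.614 and 0.883 CPM in parental cells, a difference of 4.58 (SE 0.437, adjusted p 1.45e-08). STC1, the secreted glycoprotein stanniocalcin (ENSG00000159167.12, chr8:23841915-23854807, reverse strand), had 10.7, 8.43 and 15.1 CPM in MYC-ER and 0.638, 0.773 and 1.303 CPM in parental cells. These 3 genes did not pass the test between the lines at 0 h (adjusted p 0.958, 0.236 and 0.638), and their line difference at 8 h exceeded that at 0 h by 6.84, 5.53 and 3.98 on the log2 scale (adjusted p of the interaction 4.04e-08, 5.1e-06 and 4.38e-05).

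Other genes with a large positive difference were already high before the drug. SERPINA3, a secreted inhibitor of serine proteases (ENSG00000196136.17, chr14:94612377-94624055, forward strand), had 315, 305 and 297 CPM in MYC-ER and 14.6, 13.1 and 12.4 CPM in parental cells, a difference of 4.52 (SE 0.0691, adjusted p 5.45e-21). Its level at 0 h was higher still in MYC-ER cells, at 753, 760.2 and 853 CPM, against 12.8, 12.2 and 12.2 CPM in parental cells, so the difference at 8 h was the smaller one (interaction -1.48, adjusted p 3.41e-12). The same order held for C1R, a protease of the complement cascade (3.84 at 8 h and 4.94 at 0 h), and for FBLN5, an elastic fibre protein (3.41 and 5.16), with interactions of -1.099 and -1.75 (adjusted p 7.26e-07 and 3.49e-08). IGFBP3, which binds insulin-like growth factors, had 14.04, 12.004 and 19.6 CPM in MYC-ER and 1.66, 1.15 and 1.45 CPM in parental cells at 8 h and was also higher at 0 h (3.42 and 2.85). ARFGEF3, SLITRK4 and LOXL2, a lysyl oxidase that crosslinks collagen, went the other way: they were lower in MYC-ER cells at 0 h (-1.21, -0.71 and -0.68) and higher at 8 h (3.62, 3.47 and 3.37). LOXL2 had 56.1, 53.5 and 62.5 CPM in MYC-ER and 4.41, 4.73 and 7.44 CPM in parental cells at 8 h.

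Among the 10 largest negative differences, 7 were genes of DNA replication or cell division. PIF1, a DNA helicase (ENSG00000140451.13, chr15:64815632-64825668, reverse strand), had 0.246, 0.177 and 0.167 CPM in MYC-ER and 21.8, 19.5 and 19.995 CPM in parental cells, a difference of -6.698 (SE 0.232, adjusted p 7.1e-16). CDC25C, the phosphatase that activates the mitotic kinase CDK1 (ENSG00000158402.20, chr5:138285265-138338355, reverse strand), had 0.217, 0.184 and 0.207 CPM in MYC-ER and 13.02, 12.7 and 12.7 CPM in parental cells, a difference of -5.97 (SE 0.129, adjusted p 2.38e-19). DLGAP5, CDCA3, the chromosome motor KIF4A, the kinetochore protein NDC80 and the spindle protein HMMR differed by -5.77, -5.76, -5.55, -5.49 and -5.43. The other 3 were secreted or surface proteins. FN1, which encodes the matrix protein fibronectin (ENSG00000115414.19, chr2:215360440-215436172, reverse strand), had 0.665, 0.851 and 0.674 CPM in MYC-ER and 52.3, 45.7 and 43.3 CPM in parental cells, a difference of -6.01 (SE 0.15, adjusted p 2.36e-18). CHI3L1, a chitinase-like secreted glycoprotein, and TREM2, a lipid receptor best known from macrophages, differed by -5.64 and -5.46. All 10 were also lower in MYC-ER cells at 0 h, by -4.99 for CDCA3 to -7.23 for PIF1. At 24 h PIF1 and the division genes were no longer near 0 in MYC-ER cells (CDC25C 20.4 ± 0.402 CPM, SD, n = 3), whereas FN1 had 1.63 ± 0.329 CPM against 64.7 ± 4.38 CPM in parental cells.

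**Figure D2:**
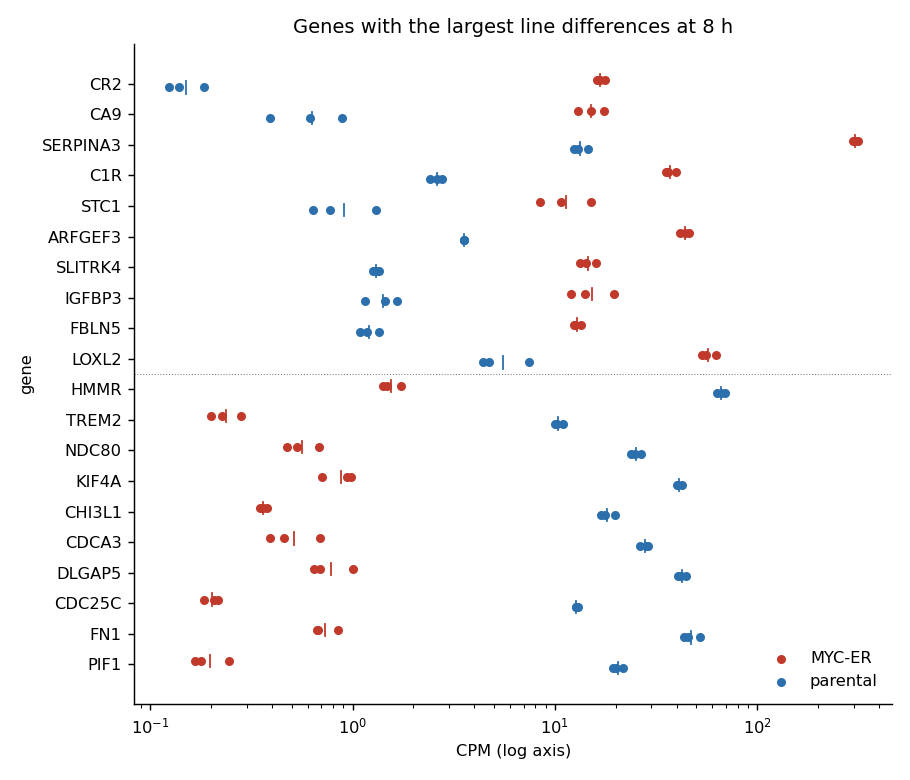
CPM on a log axis of the 10 genes with the largest positive (above the dotted line) and the 10 with the largest negative log2 difference at 8 h; each dot is 1 of 3 libraries a group and the vertical tick is the group mean. No gene shown has overlapping groups.

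The cell cycle lists differed most from the rest of the genes. All 35 genes of G2 and mitosis were lower in MYC-ER cells at 8 h, against 25.5% of all genes, and 34 of them were at least 2-fold lower, against 10.6%. Their median difference was -4.29, with a range from -5.97 to -0.78. KIF4A (ENSG00000090889.12, chrX:70290090-70420832, forward strand) had 0.9401, 0.979 and 0.707 CPM in MYC-ER and 42.6, 40.5 and 40.2 CPM in parental cells, and HMMR (ENSG00000072571.20, chr5:163460203-163491945, forward strand) had 1.74, 1.48 and 1.41 CPM in MYC-ER and 69.6, 63.2 and 66.1 CPM in parental cells. Of the 32 genes of S phase 30 were lower, 22 of them at least 2-fold, with a median of -1.29. In bulk RNA, fewer cells in a phase cannot be told apart from less RNA of these genes per cell.

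The replication list was not uniformly low. CDC45 and the GINS complex, which together with the MCM ring form the replicative helicase, were among the lowest: GINS4 had 2.68, 2.87 and 2.95 CPM in MYC-ER and 21.7, 19.1 and 20.1 CPM in parental cells (-2.84), and CDC45 had 5.64, 5.81 and 5.45 CPM in MYC-ER and 31.9, 31.4 and 31.3 CPM in parental cells (-2.48). GINS1 and GINS2 differed by -2.17 and -2.05. MCM6, a subunit of the MCM ring, was the 1 member called higher (0.36, adjusted p 0.000234), and POLD1, the catalytic subunit of DNA polymerase delta, did not pass the test, with 55.2, 54.1 and 55.96 CPM in MYC-ER and 58.1, 61.7 and 58.7 CPM in parental cells (-0.11, adjusted p 0.259). Both lists were lower still at 0 h, where all 32 and all 35 genes were called lower, with medians of -2.27 and -5.23 (32.7% of all genes were lower at 0 h). Between 0 and 8 h the line difference moved upward for 29 S phase genes and 23 G2 and mitosis genes, counted as positive interactions past the threshold (27.3% of all genes), and downward for 2 and 6 (27.8% of all genes).

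Upstream of S phase the picture was mixed, with 3 of 9 G1 cyclins, kinases and CDC25A higher and 4 lower. CCND1, the cyclin D1 gene, had 171, 169 and 168 CPM in MYC-ER and 171, 168 and 166 CPM in parental cells; these values overlap, and the difference was 0.01 (adjusted p 0.947), whereas it had been -2.38 at 0 h. CCNE1, cyclin E1, was likewise near equal (0.03, adjusted p 0.719, against -1.66 at 0 h). CCND2, cyclin D2, was higher in MYC-ER cells, with 82.4, 79.3 and 79.3 CPM in MYC-ER and 39.9, 38.4 and 37.5 CPM in parental cells (1.06 (SE 0.0444, adjusted p 1.96e-14)), and the kinases CDK4 and CDK6 differed by 0.53 and 0.55. CCNE2, CDK2, CDC25A and CCND3 were lower, by -1.603, -1.38, -0.70 and -0.51. Of the 5 CDK inhibitors tested, CDKN1C was higher (0.53) and CDKN2C, CDKN2D, CDKN1B (p27) and CDKN1A (p21) were lower (-1.76, -1.001, -0.42 and -0.27). CDKN1B had 20.9, 20.7 and 20.2 CPM in MYC-ER and 27.6, 28.05 and 27.03 CPM in parental cells at 8 h, the reverse of the order at 0 h (0.73, adjusted p 2.69e-09).

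Promoters of mitotic genes are known for a cell cycle element, the CHR, with the letters TTTGAA. In RefSeq promoter windows (GRCh38.p14, 250 bases before to 50 after the start), TTTGAA on either strand was present in 20 of the 30 G2 and mitosis genes that had a window (66.7%), in 0 of 28 S phase genes, in 10.4% of the 13244 tested genes with a window and in 15.2% of all 35116 windows. The windows of the 3 genes of this list with the largest negative differences that held the element upstream of the start are shown from that stretch, in capitals for the element nearest the start. In DLGAP5 the element nearest the start lies on the opposite strand, where it reads TTCAAA. DLGAP5 and HMMR each held 2 upstream matches, and the one farther from the start is in small letters. The start is that of RefSeq and can differ from the GENCODE one, and the stretch for HMMR lies inside the GENCODE position given for that gene. The positions are chr14:55191649-55191734, reverse strand for DLGAP5, chrX:70290030-70290103, forward strand for KIF4A and chr5:163460570-163460631, forward strand for HMMR, each printed in the direction of the gene.
DLGAP5: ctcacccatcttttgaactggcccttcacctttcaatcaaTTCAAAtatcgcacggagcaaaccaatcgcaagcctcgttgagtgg
KIF4A: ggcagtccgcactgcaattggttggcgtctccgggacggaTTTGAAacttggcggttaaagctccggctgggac
HMMR: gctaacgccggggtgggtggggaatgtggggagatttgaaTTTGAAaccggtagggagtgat
The element was chosen after the values of the list had been seen, and a match is a description of the letters and says nothing about binding.

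Genes of ribosome production were higher in MYC-ER cells. Of 34 nucleolar genes of ribosome biogenesis 29 were called higher (23.1% of all genes) and 0 lower by edgeR, with a median of 0.53. None was lower at an unadjusted p or by DESeq2 either, and 1 was with scaling by library size alone or a fit of only the groups compared. DDX10, an RNA helicase of the small subunit pathway (ENSG00000178105.11, chr11:108665025-108940930, forward strand), had 100.3, 96.1 and 101 CPM in MYC-ER and 39.7, 40.4 and 40.1 CPM in parental cells, a difference of 1.31 (SE 0.0577, adjusted p 4.59e-14). RRP12, RRP1B and UTP20, processing factors of ribosomal RNA, differed by 1.205, 1.13 and 0.94. The 5 members that did not pass the test were NHP2 and NOP10, small proteins of the pseudouridylation complex, and RRS1, BYSL and PPAN, with differences from -0.10 for RRS1 to 0.14 for BYSL. PPAN had 49.5, 73.9 and 74.4 CPM in MYC-ER and 68., 65.5 and 64.8 CPM in parental cells, with the first MYC-ER library below every parental one; its reads may be shared with a read-through transcript to the neighbouring gene.

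At 0 h the order of the lines was the reverse. Then 33 of the 34 nucleolar genes were lower in MYC-ER cells, with a median of -0.88, and 28 of the 34 were called in opposite directions at 0 and 8 h, against 3410 of all 22158 genes. DDX10 had 26.2, 26.3 and 25.8 CPM in MYC-ER and 46.5, 40.7 and 43.2 CPM in parental cells at 0 h, and RRP12 had 43.8, 46.9 and 48.2 CPM in MYC-ER and 102, 79.01 and 97.1 CPM in parental cells. The mean log2 CPM of the list was 7.34 ± 0.016 in MYC-ER and 6.81 ± 0.0092 in parental libraries at 8 h (SD over libraries, n = 3), and 5.93 ± 0.044 and 6.82 ± 0.073 at 0 h. All 34 had a positive interaction past the threshold.

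The canonical E-box of MYC and MAX, CACGTG, reads the same on both strands and cannot overlap TTTGAA. It was present in 11 of the 28 nucleolar genes with a promoter window (39.3%), in 9.60% of tested genes with a window and in 7.26% of all windows. By call at 8 h the share was 12.4% of 3832 higher genes, 8.02% of 3779 lower genes and 8.75% of 5633 genes not called. Among genes at least 2-fold different it was 10.2% of the higher and 6.63% of the lower ones. Lists that were not mostly higher held it about as often, with 7 of 18 lysosome and autophagy genes (38.9%) and 8 of 22 genes of hnRNP splicing proteins (36.4%), and of the 16 aminoacyl-tRNA synthetases with a window 1 held it (6.25%). UTP20 and NOP10 both hold it close to the start, and they are shown because 1 of them passed the test at 8 h and the other did not. UTP20 had 119, 119 and 117 CPM in MYC-ER and 62.6, 63.6 and 58.8 CPM in parental cells, and NOP10 had 85.9, 76.8 and 82.4 CPM in MYC-ER and 80.04, 77.6 and 83.4 CPM in parental cells, with overlapping groups and a difference of 0.02 (adjusted p 0.863). The stretches lie at chr12:101280055-101280104, forward strand for UTP20 and chr15:34343137-34343187, reverse strand for NOP10, with the E-box nearest the start in capitals.
UTP20: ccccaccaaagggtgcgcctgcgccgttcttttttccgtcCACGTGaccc
NOP10: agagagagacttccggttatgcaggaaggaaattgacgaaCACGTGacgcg
Both genes had been lower in MYC-ER cells at 0 h (-0.46 and -1.199), so the line difference of either moved upward, with interactions of 1.41 and 1.22 (adjusted p 1.45e-09 and 8.79e-08).

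RNA polymerases I and III, which transcribe ribosomal and transfer RNA, showed the same direction, with 18 of 25 genes higher and 2 lower (TAF1D and BRF2) and a median of 0.33. POLR1G, a polymerase I subunit, had 57.5, 56.4 and 48.2 CPM in MYC-ER and 26.8, 29.4 and 24.997 CPM in parental cells (0.996 (SE 0.06997, adjusted p 1.14e-10)), and POLR3G, a subunit of a polymerase III form, differed by 0.93. UBTF, the factor that activates ribosomal DNA, did not pass the test (-0.12, adjusted p 0.0636). Of 20 cytosolic aminoacyl-tRNA synthetases, which load transfer RNAs with amino acids, 16 were higher and 1 lower (QARS1, -0.30), with a median of 0.34. IARS1, the isoleucine enzyme, had 479, 484 and 492 CPM in MYC-ER and 278, 283 and 272 CPM in parental cells (0.81), while AARS1, TARS1 and VARS1 did not pass the test. At 0 h 15 polymerase genes and 15 synthetases had been lower, with medians of -0.34 and -0.66.

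Nucleotide synthesis split by step. Of 24 genes 13 were higher and 9 lower, with a median of 0.24. The enzymes that make deoxynucleotides and thymidylate were the lowest: TK1 (thymidine kinase) had 2.55, 2.19 and 2.26 CPM in MYC-ER and 50.3, 50.995 and 48.9 CPM in parental cells, and TYMS (thymidylate synthase), RRM2 and RRM1 (ribonucleotide reductase) and DUT differed by -3.22, -3.003, -1.92 and -1.03. CAD, which starts pyrimidine synthesis, was higher (0.70), and GMPS and ADSS2 of purine synthesis did not pass the test. Of 12 serine and one-carbon enzymes 4 were higher and 5 lower. MTHFD1L, a mitochondrial folate enzyme, had 142, 131 and 141 CPM in MYC-ER and 50.7, 52.5 and 50.7 CPM in parental cells (1.43 (SE 0.0624, adjusted p 4.04e-14)), and MTHFD1, MTHFD2 and the folate carrier SLC25A32 were also higher, whereas PHGDH, PSAT1, PSPH, SHMT1 and MTHFD2L were lower (PSAT1 -0.62, SHMT1 -0.71). Of 10 polyamine genes 4 were higher (the synthases SRM and SMS, AZIN1 and SMOX) and 4 lower, OAZ2, PAOX, ODC1, the rate-limiting enzyme and a textbook MYC target (-0.38), and SAT1, which starts polyamine breakdown (-0.92).

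Glycolysis genes and glucose or lactate carriers were higher in 13 of 23 cases and lower in 2 (PFKM and LDHB), with a median of 0.29 against -0.76 at 0 h, when 20 were lower. PFKP, a phosphofructokinase, had 507, 479 and 523 CPM in MYC-ER and 250.3, 245 and 264 CPM in parental cells (0.99 (SE 0.0826, adjusted p 1.8e-09)). ALDOC, the hexokinase HK2 and the lactate carrier SLC16A1 differed by 0.66, 0.64 and 0.59, whereas the glucose carrier SLC2A1 overlapped between the groups (-0.03, adjusted p 0.859), as did GAPDH, which has many pseudogenes. Splicing proteins stood near the median of all genes: 4 of 12 SR proteins were higher and 2 lower, and 6 of 23 hnRNP proteins were higher and 7 lower. With a GC trend removed from each library the SR counts were 7 higher and 0 lower, and with scaling by library size alone 3 hnRNP proteins were higher. SRSF1, the best studied SR protein, had 448, 465 and 431 CPM in MYC-ER and 348, 339 and 348 CPM in parental cells (0.38), and HNRNPA1, which has many pseudogenes, had 1003, 986 and 985 CPM in MYC-ER and 1398, 1403 and 1475 CPM in parental cells (-0.52).

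In the MYC network itself, 8 of 12 genes were higher and 1 lower. MXI1, which competes with MYC for MAX, had 72.8, 68.1 and 75.2 CPM in MYC-ER and 22.4, 24.5 and 25.3 CPM in parental cells (1.58 (SE 0.0594, adjusted p 3.01e-15)), and differed by 1.49 at 0 h. MLXIP, a glucose-sensing partner of MLX, and MXD4, another MAX partner, differed by 0.76 and 0.67. MAX, MXD1, MNT and MLX were higher by 0.48, 0.58, 0.55 and 0.41, and MXD3 was lower (-1.51).

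**Figure D3:**
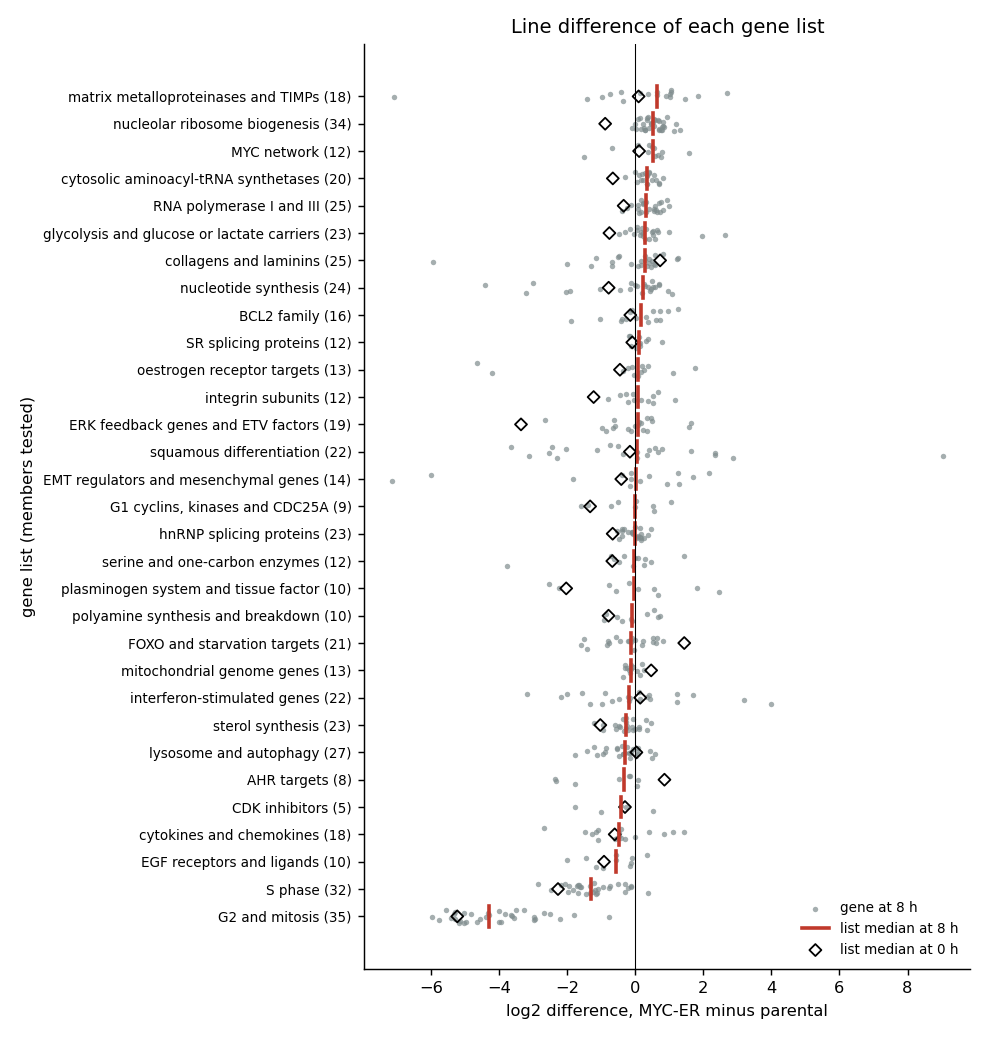
Log2 difference at 8 h of each member (grey dots) of 31 gene lists, with the list median at 8 h (red bar) and at 0 h (open diamond); the number of members tested stands in parentheses. The median of G2 and mitosis was -4.29 at 8 h and -5.23 at 0 h, that of nucleolar genes 0.53 and -0.88, and that of ERK feedback genes 0.07 and -3.35.

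Genes that respond to ERK, the kinase at the end of the growth factor cascade, differed in both directions at 8 h. Of 19 genes 7 were higher and 6 lower, against 30.5% and 28.0% of protein-coding genes, so these counts do not set the list apart at 8 h. The range was from -2.66 to 1.65, and the median of 0.07 fell to -0.01 with scaling by library size alone. At 0 h 17 of the 19 were lower, with a median of -3.35. The transcription factor gene ETV4 had 28.1, 27.03 and 27.98 CPM in MYC-ER and 32.02, 31.7 and 33.1 CPM in parental cells at 8 h (-0.22, adjusted p 0.0596) and 0.0522, 0.0794 and 0.111 CPM in MYC-ER and 34.1, 26.98 and 36.7 CPM in parental cells at 0 h. FOSL1 of the AP-1 family had 77.9, 68.4 and 78.4 CPM in MYC-ER and 77.6, 68.8 and 78.6 CPM in parental cells, with overlapping groups, against a difference of -3.38 at 0 h. DUSP6, a phosphatase that switches ERK off, was still lower at 8 h, with 184, 176 and 186 CPM in MYC-ER and 327, 325 and 341 CPM in parental cells (-0.86), as were EGR1 and the receptor EPHA2 (-0.63 and -0.65), whereas the feedback inhibitor SPRY1 was higher (1.59). Between 0 and 8 h the line difference moved upward past the threshold for 17 of the 19 and downward for 1.

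Among EGF receptors and their ligands 6 of 10 were lower and 1 higher (TGFA, 0.34), with a median of -0.56. AREG, the ligand amphiregulin, had 37.95, 37.1 and 33.8 CPM in MYC-ER and 97.9, 97.5 and 99.6 CPM in parental cells (-1.44 (SE 0.08599, adjusted p 8.26e-12)), and the ligands EPGN and HBEGF and the receptor ERBB2 differed by -1.16, -0.95 and -0.57. EGFR itself did not pass the test (-0.14, adjusted p 0.284). The FOXO transcription factors, active when growth signals are low, and their targets were higher in MYC-ER cells for 17 of 21 genes at 0 h (31.6% of all genes), with a median of 1.44. At 8 h 6 were higher and 8 lower, with a median of -0.12. SESN3, a stress sensor that restrains mTORC1, had 5.57, 6.598 and 5.06 CPM in MYC-ER and 15.8, 17.7 and 15.5 CPM in parental cells (-1.51 (SE 0.151, adjusted p 2.93e-08)), BCL6 differed by -0.82, and CITED2 and RICTOR were higher (0.80 and 0.65). IRS2, KLHL24, CCNG2, INSR and GADD45A did not pass the test. The BCL2 family of apoptosis regulators had 8 of 16 genes higher and 4 lower: the survival gene MCL1 had 1196, 1176 and 1167 CPM in MYC-ER and 698, 694 and 734 CPM in parental cells (0.74 (SE 0.0642, adjusted p 3.72e-09)), and the death-promoting BID, BOK and BCL2L11 were also higher (0.74, 0.62 and 0.52). BCL2L1, BAD, BMF and BBC3 were lower.

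Genes of the extracellular matrix and its turnover moved in both directions. Of 18 matrix metalloproteinases and their inhibitors 9 were higher and 6 lower, with a median of 0.64. The inhibitor TIMP3 was higher, with 179, 185 and 195 CPM in MYC-ER and 70.1, 68.4 and 66.5 CPM in parental cells (1.45 (SE 0.0467, adjusted p 2.01e-16)), and the inhibitor TIMP1 was lower, with 309.9, 281 and 292 CPM in MYC-ER and 567, 577 and 604 CPM in parental cells (-0.99 (SE 0.0931, adjusted p 1.24e-08)). The collagenase gene MMP1 and the stromelysin gene MMP10 differed by 1.05 and 1.01. In the plasminogen system, PLAT, the tissue plasminogen activator, had 17.3, 17.4 and 18.2 CPM in MYC-ER and 102, 105 and 97.3 CPM in parental cells (-2.52 (SE 0.0441, adjusted p 1.67e-20)), and PLAU, the urokinase, differed by -0.78. The anticoagulant receptor THBD had 179, 173 and 175 CPM in MYC-ER and 48.7, 50.6 and 50.05 CPM in parental cells (1.82) and did not pass the test at 0 h (0.04, adjusted p 0.621). The list had 4 of 10 genes higher (among them PLAUR and TFPI2) and 4 lower (with SERPINB2 and F3).

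Collagens and laminins were 12 of 25 higher and 7 lower. COL6A1 was higher, with 21.1, 20.3 and 23.1 CPM in MYC-ER and 8.69, 8.66 and 10.02 CPM in parental cells (1.24), and COL4A1, a basement membrane collagen, by 0.82, whereas COL16A1 and COL18A1 were lower (-1.14 and -1.297). LAMA3 and LAMB3, chains of the epithelial laminin, overlapped between the groups. Among 12 integrin subunits ITGA5, the fibronectin receptor chain, had 604, 558 and 624 CPM in MYC-ER and 256, 249.998 and 286 CPM in parental cells (1.17 (SE 0.07997, adjusted p 7.24e-11)). ITGB1, ITGA2 and ITGA3 were higher by 0.53, 0.54 and 0.37, ITGB6 and ITGA1 were lower (-0.81 and -0.44), and the hemidesmosome pair ITGA6 and ITGB4 did not pass the test (0.18 and -0.07).

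The list of genes known from the epithelial-mesenchymal transition holds mesenchymal genes and also epithelial ones such as CDH1, ESRP1 and ESRP2. Its counts of higher and lower members therefore cannot give a direction of the transition. VIM, the filament vimentin, was higher, with 586, 561 and 585 CPM in MYC-ER and 214, 236 and 255 CPM in parental cells (1.297 (SE 0.118, adjusted p 6.61e-09)), as were the transcription factors ZEB2 and TWIST2 (1.68 and 0.94), whereas FN1 was among the lowest of all genes and CDH1, E-cadherin, did not pass the test (-0.11, adjusted p 0.133). In all 6 of 14 were higher and 5 lower. Of 22 genes of squamous differentiation 10 were lower and 6 higher, with a median of 0.06 and a range from -3.64 to 9.04. By at least 2-fold, 7 were lower and 5 higher. Where at least 10 counts in every library were required, 3 were higher. SPRR1B, a protein of the cornified envelope whose reads its paralogue SPRR1A may share, had 11.2, 9.76 and 11.9 CPM in MYC-ER and 121, 138 and 150.4 CPM in parental cells (-3.64), and the calprotectin subunits S100A9 and S100A8 differed by -2.44 and -2.03. KRT10 was higher (1.63).

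Of 18 cytokines and chemokines 8 were lower and 4 higher; CSF3, the granulocyte colony-stimulating factor, had 95.8, 94.1 and 95.6 CPM in MYC-ER and 31.9, 36.03 and 37.8 CPM in parental cells (1.43 (SE 0.0933, adjusted p 3.37e-11)), a reversal of its difference at 0 h (-2.95). Interferon-stimulated genes were 6 of 22 higher and 8 lower, against 30.5% and 28.0% of protein-coding genes, with OAS3 lower (-0.69) and OAS1 higher (0.42). Sterol synthesis was lower in 14 of 23 genes and higher in 3 (DHCR7 and INSIG1 among them), with a median of -0.26. FDPS, the farnesyl diphosphate synthase, had 339.99, 319 and 339.99 CPM in MYC-ER and 768, 757 and 785 CPM in parental cells (-1.21 (SE 0.0643, adjusted p 1.15e-12)), while the early enzymes HMGCS1 and SQLE did not pass the test. Lysosome and autophagy genes were lower in 16 of 27 cases and higher in 3 (CTSL, GAA and UVRAG), with a median of -0.30. The autophagy genes GABARAPL1 and ULK1 had 5.87, 5.73 and 5.54 CPM and 16.7, 17.4 and 20.2 CPM in MYC-ER cells against 20.8, 19.4 and 18.7 CPM and 38.3, 39.9 and 40.6 CPM in parental cells (-1.78 and -1.13), and both had been higher in MYC-ER cells at 0 h (1.25 and 1.203).

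4-OHT is a ligand of the oestrogen receptor and is also known to bind the aryl hydrocarbon receptor (AHR), so targets of both were read. Of 13 oestrogen receptor targets tested, STC2, CA12 and SIAH2 were higher (1.75, 1.11 and 0.37) and ESR1, AGR2 and SERPINA1 lower; 5 were lower with scaling by library size alone. STC2, stanniocalcin 2, had 95.7, 93.4 and 114 CPM in MYC-ER and 28.8, 30.2 and 31.3 CPM in parental cells. AHR and its targets were lower in 5 of 8 cases and higher in 0, also at an unadjusted p and by DESeq2. CYP1B1, a cytochrome P450 induced through AHR, had 5.89, 4.72 and 3.99 CPM in MYC-ER and 23.5, 30.7 and 19.2 CPM in parental cells (-2.33 (SE 0.209, adjusted p 5.73e-09)), and ALDH3A1, AHRR and NQO1 differed by -1.76, -2.35 and -0.46. ARNT, the partner of AHR, was near the threshold (-0.18, adjusted p 0.0209). At 0 h CYP1B1 had been higher in MYC-ER cells (1.22, adjusted p 1.28e-05). Of the 13 genes of the mitochondrial genome 0 were called by edgeR, 1 was lower at an unadjusted p and 1 by DESeq2, and the median was -0.13. A fit of only the groups compared called 5 lower and 1 higher.

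The differences at 8 h were in part those that the lines had without the drug and in part their reverse. At 0 h 14244 genes differed (64.3%), and the median absolute log2 difference was 0.69, against 0.42 at 8 h. The comparisons at 0 and 8 h share no library. Of the 8250 genes called at both times, 4840 had the same direction (58.7%), which is 45.0% of the calls at 8 h and 34.0% of those at 0 h. The other 3410 had opposite directions: 1955 were lower in MYC-ER cells at 0 h and higher at 8 h, and 1455 were higher at 0 h and lower at 8 h. A further 2516 genes were called at 8 h but not at 0 h, and of these 1701 had an interaction past the threshold, that is, a line difference that itself differed between the times (55.2% of all genes). The reverse, called at 0 h but not at 8 h, held for 5994 genes, 4352 of them with such an interaction.

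The genes that crossed most strongly upward were low in MYC-ER cells at 0 h and above parental cells at 8 h. At 0 h the MYC-ER libraries held 4 to 5 counts of TFPI2, 4 to 8 of NTSR1, 3 to 5 of MMP10, 7 to 12 of MMP1 and 26 to 48 of MALL, so the sizes at 0 h and of the interaction are imprecise for all of these but MALL. TFPI2, an inhibitor of serine proteases of the tissue factor pathway (ENSG00000105825.14, chr7:93885396-93890991, reverse strand), had 0.0232, 0.0284 and 0.0292 CPM in MYC-ER cells at 0 h and 29.3, 27.7 and 22.6 CPM at 8 h, against 2.82, 2.96 and 3.503 CPM and 4.22, 5.19 and 4.96 CPM in parental cells. Its difference went from -6.805 to 2.47, an interaction of 9.27 (adjusted p 8e-17). NTSR1, the neurotensin receptor (ENSG00000101188.5, chr20:62708837-62762771, forward strand), had 20.1, 20.2 and 22.2 CPM in MYC-ER and 9.79, 10.3 and 11.2 CPM in parental cells at 8 h and 0.0232, 0.03402 and 0.0467 CPM in MYC-ER and 11.5, 8.03 and 12.4 CPM in parental cells at 0 h. MMP1 and MMP10, neighbours on chromosome 11, and MALL, a membrane raft protein, also changed sign, with -7.100, -6.51 and -6.04 at 0 h against 1.05, 1.01 and 0.55 at 8 h. By 24 h TFPI2, NTSR1, MMP1, MMP10 and MALL were again below parental cells: TFPI2 had 3.37 ± 0.468 CPM against 9.27 ± 1.05 CPM (SD, n = 3), a log2 difference of -1.46 (adjusted p 1.45e-08).

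The opposite crossing was made by genes that were high in MYC-ER cells at 0 h. FBXO32, a ubiquitin ligase subunit known as atrogin-1 and a FOXO target (ENSG00000156804.7, chr8:123497889-123541206, reverse strand), had 120.4, 119 and 119 CPM at 0 h and 1.25, 1.35 and 1.67 CPM at 8 h in MYC-ER cells, against 4.65, 5.04 and 4.51 CPM and 2.25, 2.704 and 2.41 CPM in parental cells. BMF, a death-promoting BCL2 relative, had 39.2, 38.8 and 41.7 CPM at 0 h and 0.166, 0.206 and 0.133 CPM at 8 h in MYC-ER cells, where parental cells had 0.742, 0.633 and 0.488 CPM at 8 h (-1.88 (SE 0.167, adjusted p 5.02e-09)). KDR, a receptor of vascular endothelial growth factor, ADH1B, an alcohol dehydrogenase, and CMKLR2, a chemerin receptor, went from 4.96, 3.996 and 3.07 to -1.101, -1.37 and -2.32. At 8 h all 5 were under 6 CPM in every library of both lines, so the reversal at 8 h is between low levels.

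Other genes had large differences in 1 direction at both times, although for some the size changed in between. ABI3BP, a matrix protein, had 4.17, 4.76 and 5.34 CPM in MYC-ER and 0.137, 0.158 and 0.247 CPM in parental cells at 8 h (4.71, and 7.08 at 0 h, interaction -2.37, adjusted p 0.000846). HLF, a transcription factor of the PAR bZIP family (ENSG00000108924.14, chr17:55265012-55325065, forward strand), had 9.49, 8.68 and 8.18 CPM in MYC-ER and 0.508, 0.469 and 0.513 CPM in parental cells at 8 h and 10.97, 10.4 and 11.1 CPM in MYC-ER and 0.4296, 0.708 and 0.517 CPM in parental cells at 0 h, and its difference did not change past the threshold (interaction -0.15, adjusted p 0.558). SLC2A14, which shares most of its sequence with the glucose carrier SLC2A3 so that its reads are uncertain, was higher by 4.09 at 8 h and 9.82 at 0 h, a change of -5.73 (adjusted p 1.29e-08), and had 39.5, 42.8 and 42.9 CPM in MYC-ER cells at 0 h and 0.991, 1.55 and 1.37 CPM at 8 h. On the low side were PIF1, FN1, DLGAP5, CDC25C and HMMR. The interaction passed the threshold for DLGAP5, FN1 and HMMR (1.25, 0.91 and 0.45, adjusted p 9.34e-06, 0.000967 and 0.0308), whose differences were smaller at 8 h, and not for PIF1 and CDC25C. FN1 had 0.244, 0.3799 and 0.368 CPM in MYC-ER and 38.3, 45.1 and 36.9 CPM in parental cells at 0 h.

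**Figure D4:**
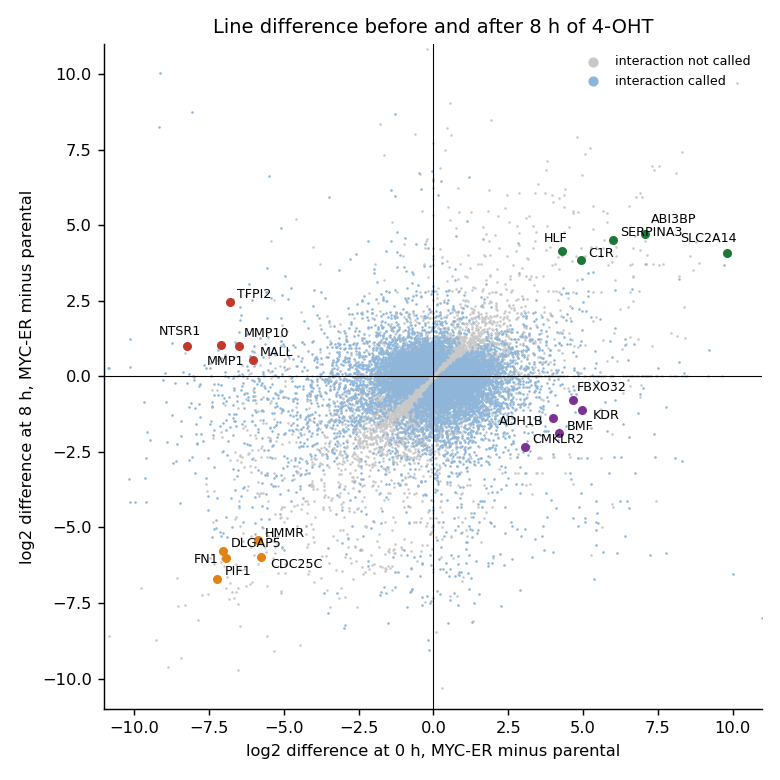
Log2 difference between MYC-ER and parental cells at 8 h (vertical axis) against that at 0 h (horizontal axis) for all tested genes except 8 outside the axes; blue points have an interaction past the threshold. Named genes changed sign (TFPI2 from -6.80 to 2.47, FBXO32 from 4.65 to -0.79) or kept it (PIF1 -7.23 and -6.70, HLF 4.29 and 4.14).

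The levels of whole lists are given for each line. CPM is relative to the other genes of a library, so a change in the amount of RNA per cell was not measured. Between 0 and 8 h the mean log2 CPM of the ERK list went from 1.43 ± 0.014 to 5.01 ± 0.084 in MYC-ER libraries and from 4.83 ± 0.11 to 5.11 ± 0.050 in parental ones (SD, n = 3). The FOXO list went from 5.46 ± 0.024 to 3.53 ± 0.0084 in MYC-ER and from 4.06 ± 0.16 to 3.77 ± 0.040 in parental libraries. S phase went from 2.68 ± 0.021 to 4.33 ± 0.021 against 5.43 ± 0.049 and 5.58 ± 0.026, and G2 and mitosis from 1.10 ± 0.035 to 2.06 ± 0.054 against 6.02 ± 0.064 and 6.14 ± 0.073. At 24 h the MYC-ER libraries stood above the parental ones in both cell cycle lists, with means of 5.95 ± 0.032 against 5.60 ± 0.016 for S phase and 6.61 ± 0.017 against 6.30 ± 0.014 for G2 and mitosis. The ERK list was by then back at 3.43 ± 0.086 in MYC-ER cells, against 5.18 ± 0.038.

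**Figure D5:**
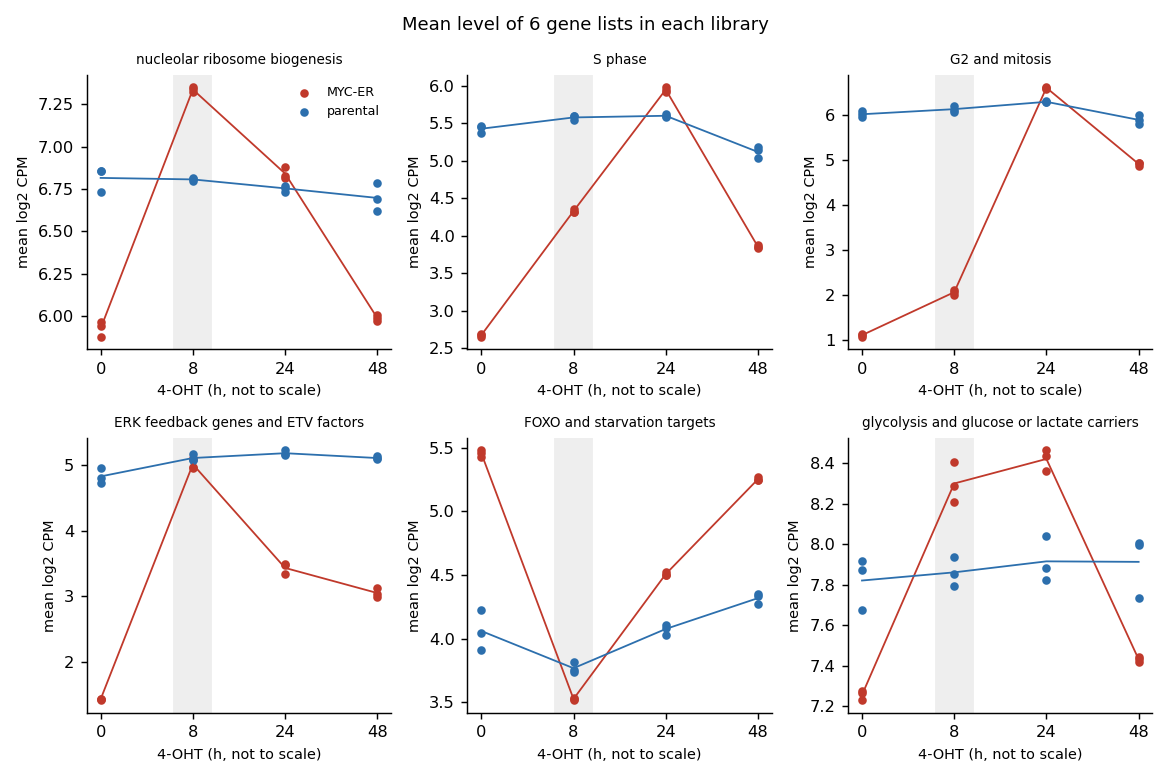
Mean log2 CPM over the tested members of 6 gene lists in each of the 24 libraries (dots) and per group (lines through the means), by hours of 4-OHT on an axis that is not to scale; grey marks 8 h. At 8 h the nucleolar list stood at 7.34 in MYC-ER and 6.81 in parental cells, while G2 and mitosis stood at 2.06 and 6.14.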

How the data were processed

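RNA was measured by strand-specific, poly(A)-selected paired-end sequencing, per the labels' protocols. The authors deposited 1 table of unnormalised gene counts in whole numbers, which has 60668 rows and 24 library columns. The submitters' processing notes name GRCh38, Trimmomatic 0.39, STAR and StringTie 2.1.3b, without role or order. The counting step, annotation release and use of strand are not given in the sources used here. If counts were derived from StringTie's coverage they are estimates, and genes that overlap or have close copies are uncertain. Of the rows, 60295 matched a symbol.

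Groups came from the labels. Counts of all 24 libraries were fitted in edgeR 4.0.16 (R 4.3.3) with filterByExpr, TMM scaling and 1 mean for each of 8 groups, which left 22158 genes. Line differences at 8 h and 0 h, and their difference (the interaction), were tested with the two-sided quasi-likelihood test and Benjamini-Hochberg adjustment over all genes at a threshold of 0.05. A 2nd rule also asked for a 2-fold difference. The fit was tested on simulated data with few changed genes and 1 spread for all genes. It called 92% of 50 genes set 2-fold higher and 78% of 50 set 2-fold lower, with 10 false calls. Differences as wide as those between the lines were not simulated. Log2 CPM used a prior count of 2. The spread was shared across groups (common biological coefficient of variation 0.151), and the standard error was the log2 difference divided by the square root of F. A count of 0 allows up to 3 counts, or 0.0179 to 0.0201 CPM in these 6 libraries when the TMM factor is left out. Such limits cover counting error alone. Chi-square tests found replicates to differ by more than sampling noise (15.1 to 27.3 per degree of freedom), so none was merged.

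The 31 gene lists (583 genes, 565 tested) and 5 marker lists were written from general knowledge. The comparison, members and lists were chosen with earlier results of these data known. BCL2L11, ERBB3, ESR1 and a few other genes stand in more than 1 list. Named genes are the 10 with the largest positive and the 10 with the largest negative difference at 8 h (past the threshold, a proper symbol, 1 group averaging 10 CPM or more, replicates not overlapping), per list up to 4 members past the threshold and those not past it at that level, and by the same limits the 5 and 5 that changed sign or kept it most strongly between 0 and 8 h. Other members, among them those behind counts of 5 or fewer, were named after their values were seen. Some list members are counted but not reported here by name. Gene positions, GC and length came from GENCODE v29, and promoters from RefSeq. The E-box was planned and TTTGAA was chosen later.

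Alternatives were DESeq2 1.42.0 size factors and its Wald test, library size, upper quartile, 2 filters, a block for the replicate number, removal of a GC trend, a fit without the other groups, and leaving out each 0 h or 8 h library. Limma 3.58.1 supplied functions used by edgeR.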

Additional observations from a re-analysis of the deposited data

Results flagged for a closer look

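The difference between the lines was not the same at 0 and 8 h. The test of the difference of differences passed the threshold for 12227 genes, and 3410 genes were called in opposite directions at the 2 times. The libraries of the lines come from the same times of collection, and the comparisons at 0 and 8 h share none.

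Among genes whose sign changed from lower to higher in MYC-ER cells, the log2 interaction was 9.27 for TFPI2, 9.23 for NTSR1, 8.15 for MMP1, 7.53 for MMP10 and 6.59 for MALL. Each had under 0.3 CPM in every MYC-ER library at 0 h, with 4 to 5, 4 to 8, 7 to 12, 3 to 5 and 26 to 48 counts in this order, so the sizes for the first 4 genes rest on few counts. Among genes that changed from higher to lower it was -6.09 for BMF, -6.06 for KDR, -5.44 for FBXO32, -5.40 for CMKLR2 and -5.36 for ADH1B.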

How the results depend on the processing

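In the alternatives run for the difference at 8 h, which leave out 8 h libraries but no 24 h or 48 h library, no named gene changed sign past the threshold, and genes called both there and in the fit reported kept their sign. Fits without a 0 h library were read for the interaction and for genes grouped by their differences at 0 and 8 h. Requiring at least 10 counts in every one of the 24 libraries left 16056 genes. Genes at least 2-fold different then numbered 1989, of which 644 were higher and 1345 lower, against 3328, 981 and 2347 in the fit reported. That filter also drops genes with few counts in only 1 group. The number of genes differing at 8 h ran from 9645 with that filter to 11704 in a fit of only the groups compared, and was 11142 with DESeq2's Wald test and 9777 to 9882 when 1 of the 6 libraries was left out. The share of calls that were higher was 47.5%, and 38.7% with library size alone and 57.1% with the GC trend removed. Same-numbered libraries of the lines did not deviate together at 8 h (correlations of -0.013 to 0.0019). At 0 h their correlations were small and positive (0.023 to 0.039), and those of unlike numbers ran from -0.029 to -0.0093. These values do not settle whether the numbers pair libraries. With the replicate block 10705 genes differed at 8 h and 12158 had an interaction past the threshold.

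Of the named genes, SRSF6, SRSF3 and ARNT lost their call in some fits, ARNT in those without any 1 of 4 of the 6 libraries; the cause was not tested. Calls were gained more often: counted per gene and fit, 185 calls were gained and 10 lost. TARS1, TPI1, PGAM1 and PFKFB4 gained a call in fits without 1 of the 6 libraries. A gene that did not pass the test is therefore not shown to be equal between the lines. ESR1 was -8.23 without MYC-ER 8 h replicate 2, when the MYC-ER libraries left held 0 counts, so that value is no measured size. Small list counts moved too: fitting only the groups compared gave 4 integrins lower and 5 sterol genes higher, and removing the GC trend gave 6 lysosome genes and 5 sterol genes higher and 7 SR splicing genes higher (4 as reported). Requiring at least 10 counts in every library gave 3 squamous differentiation genes higher (6 as reported), and library size alone gave 3 hnRNP genes higher (6 as reported). List medians moved as well. Counted per list and fit, 67 medians differed from the reported one by more than the spread between libraries, and 429 did not. Depth was high enough that counting error is small for genes over 10 CPM, while genes near 3 counts per library are not resolved.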

Other observations

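Non-coding genes were lower in MYC-ER cells at 8 h more often than they were higher. By the classes of GENCODE v29, 26.4% of 1656 lincRNA genes were called lower and 6.70% higher, and of 1728 antisense genes 23.7% were lower and 7.002% higher. Of 15000 protein-coding genes 28.0% were lower and 30.5% higher. The median log2 difference was -0.45 for lincRNA genes, -0.36 for antisense genes and 0.01 for protein-coding genes. Antisense genes depend on whether counting used strand, which is not given, and the part of expression level in these shares was not tested.

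Among genes averaging at least 1 CPM at 8 h, the median log2 difference of a chromosome ran from -0.03 on chromosome 19 to 0.11 on chromosome 3.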
